A study of Mus musculus with 6 samples.

Results

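The conjugating enzymes of the colon were followed in mice with colitis-associated colon cancer (CAC) that had been given RG@M-γ-CD or PBS. RG@M-γ-CD is regorafenib (RG), an oral multi-kinase inhibitor, enclosed in a mannose-modified γ-cyclodextrin. The genes were chosen by name alone: a gene probe was taken when its name in the scanner output began with Ugt1, Ugt2, Ugt3, Gsta, Gstm, Gstp, Gstt, Gsto, Gstk, Gstz, Mgst or Sult. This gave 81 of 56605 gene probes and 56 of 37074 gene names, of which 14 were UDP-glucuronosyltransferases (UGTs), 23 glutathione S-transferases (GSTs) and 19 sulfotransferases (SULTs). Both groups were male C57BL/6 mice, bought at 6 to 8 weeks of age, that had received AOM (10 μg/g), a carcinogen, followed by 2% DSS in the drinking water, which injures the colon lining. The 3 mice of the RG@M-γ-CD group then received 30 μg/g of the complex by mouth, equal to 10 μg/g RG, and the 3 mice of the PBS group received PBS. Dosing lasted 21 days, and the colons were taken once a further 14 days had passed. Each sample was colon tissue with tumors from 1 mouse, so tumor, mucosa and muscle were hybridized together. Mice given RG alone or the empty carrier were not analysed here, and the parts of drug and carrier cannot be told apart.

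All 3 classes attach a polar group to small molecules so that the product can be pumped out of the cell and excreted. UGTs sit in the endoplasmic reticulum and transfer glucuronic acid from UDP-glucuronate to bilirubin, steroids, phenols and many drugs, and glucuronidation by UGT1A9 is one of the known routes of regorafenib in humans. GSTs couple glutathione to electrophiles, with soluble families named alpha (Gsta), mu (Gstm), pi (Gstp), theta (Gstt), omega (Gsto), zeta (Gstz) and the mitochondrial kappa (Gstk), and a separate membrane family (Mgst). SULTs transfer sulfate from the donor PAPS to phenols, steroids, bile acids and catecholamines. The epithelium of the gut expresses all 3 classes and meets swallowed compounds first.

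RNA was measured on 1 one-color Agilent array per mouse, and levels are given as log2 intensity minus the 75th percentile of the gene probes of the same array. A probe is called detected on an array where the scanner software marks its signal as well above background, which was true of 49.6% to 55.2% of the gene probes per array. A probe was tested when 1 group or both had it detected on each of their 3 arrays, the brightest tested probe stood for its gene, and 19090 genes were tested in 1 limma fit with Benjamini-Hochberg adjustment. None of these genes passed an adjusted p of 0.05, which is 0% of the genes tested, while 419 had an unadjusted p below 0.05. The array of RG@M-γ-CD replicate 1 stood apart from the other 2 arrays of its group. Its mean level of 8 smooth muscle markers was 1.84, against 4.61 and 4.83 in replicates 2 and 3 and 2.62 to 2.99 in PBS. The mean of the 10 mature colonocyte markers tested, of 12 listed, was 2.16 in that replicate and between 3.04 and 4.16 on the other 5 arrays, with Slc51a and Scnn1b too dim to be tested. The mean of 8 goblet cell markers was 5.49, against 6.42 to 7.48 on the others. All 12 epithelial markers were tested, and their mean lay between 5.99 and 6.59 on the 6 arrays, so epithelial RNA was present in each sample. With that replicate left out, 206 of 19466 genes (1.06%) passed the adjusted threshold. In tissue RNA of this kind, fewer cells of a type and less RNA per cell cannot be told apart.

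Of the 56 conjugation genes, 34 were tested, and each of the 34 probes that stood for them was detected on all 6 arrays, so none had entered through 1 group alone. They comprised 22 GST, 8 SULT and 4 UGT genes. None of the 34 passed the adjusted threshold (smallest adjusted p = 0.99998, limma). An unadjusted p below 0.05 was reached by 2 members (5.88%), beside 2.19% of all genes tested. The arrays of the groups did not overlap for the same 2 members, Gstm1 and Gstm4, beside 4.57% of all genes. None of the members reached the methods' threshold of a fold change of 2 with an unadjusted p of 0.05, which 0.561% of all genes did. Higher values in the RG@M-γ-CD group were found in 25 of the 34, beside 47.2% of all genes tested. That number was 17 when PBS replicate 1 was left out, 17 when RG@M-γ-CD replicate 3 was, and 32 with the row of the array on its slide as a block. The median log2 change was 0.14 for the UGTs, 0.12 for the GSTs and 0.23 for the SULTs, against -0.01 over all genes. These medians were small beside the spread between arrays, since the pooled SD of an array's class median was 0.48 for the UGTs, 0.21 for the GSTs and 0.51 for the SULTs.

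**Figure D1:**
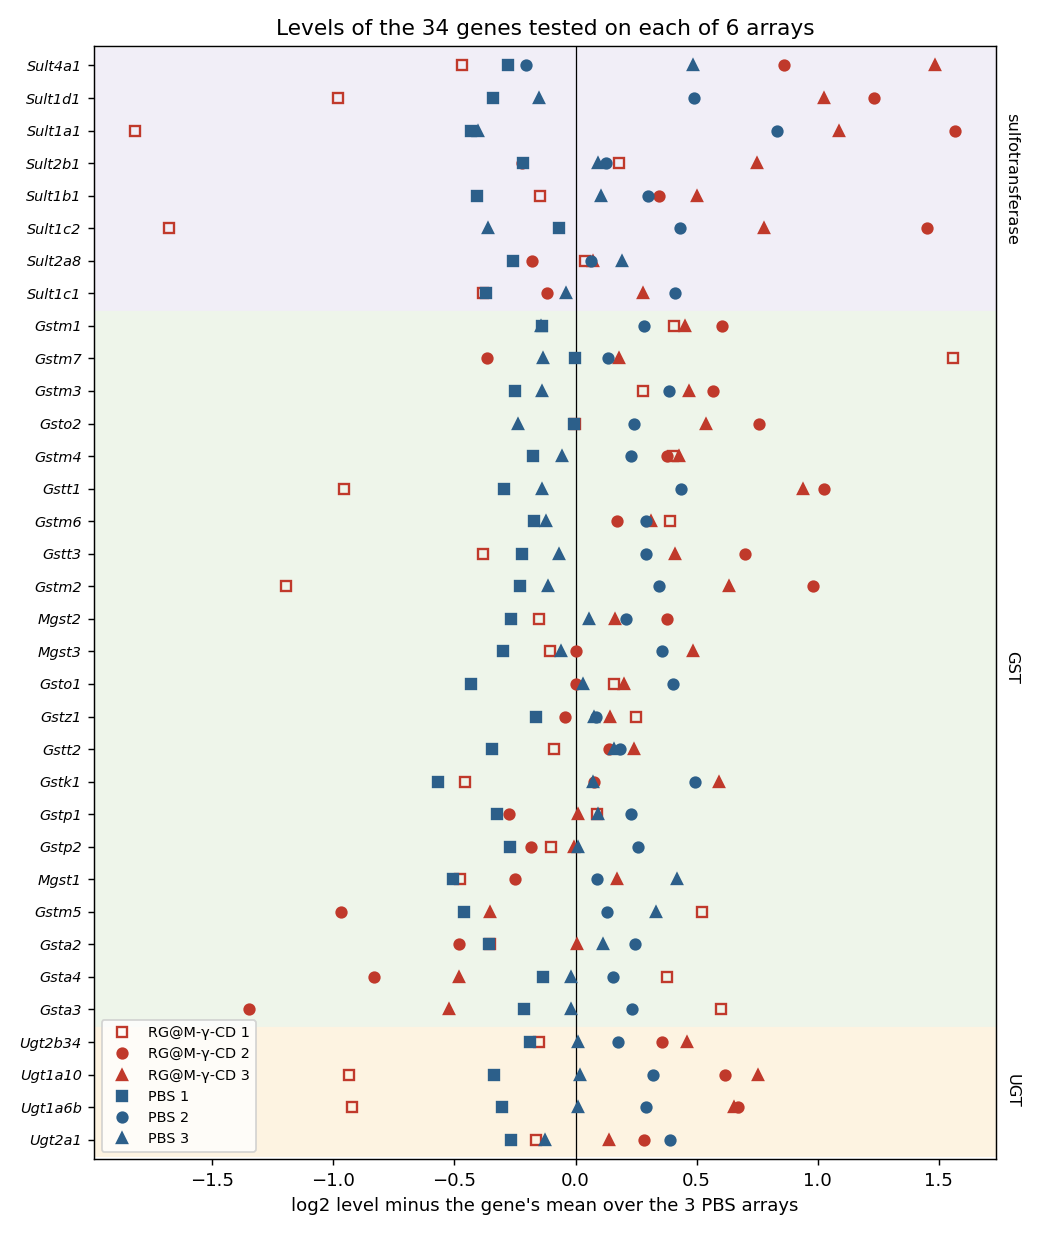
Log2 level of each tested gene on each array, minus the mean of its 3 PBS arrays (x axis), with 1 row per gene ordered by change within its class. Red marks are the 3 RG@M-γ-CD arrays, the open squares being replicate 1, and blue marks the 3 PBS arrays. Only Gstm1 and Gstm4 have all red marks to the right of all blue ones, and for Sult1a1, Sult1c2, Sult1d1, Gstt1 and Gstm2 the open square lies farthest to the left.

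The UGT1 enzymes come from 1 gene locus, in which each enzyme has its own first exon and all share the exons that follow. What a probe reads there depends on where it lies, so the 3 probes that show this are printed, on mouse build mm9 and the plus strand as the array file places them. The first lies at the far end of the locus (chr1:89952780-89952839) and is listed for Ugt1a10 and Ugt1a9. The second lies farther in (chr1:90004249-90004308) and is listed for Ugt1a6b alone. The third (chr1:90114900-90114959) carries the name Ugt1a6b too but lies at the other end of the locus, close to a probe listed for several Ugt1a genes.
Ugt1a10 probe: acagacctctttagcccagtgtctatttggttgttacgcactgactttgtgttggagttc
Ugt1a6b inner probe: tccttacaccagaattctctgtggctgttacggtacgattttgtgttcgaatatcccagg
Ugt1a6b end probe: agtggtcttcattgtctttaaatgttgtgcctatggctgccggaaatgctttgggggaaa
The probe that stood for Ugt1a6b in the test (chr1:90115493-90115552) lies just beyond the third, and the array file lists it for Ugt1a6a, Ugt1a7c and Ugt1a10 as well. It cannot tell these Ugt1a transcripts apart. The names Ugt1a1, Ugt1a7c and Ugt1a9 head no probe among those used here, and these enzymes were not analysed apart.

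All 4 tested UGTs had slightly higher means in the RG@M-γ-CD group, and none came near the threshold. The tested Ugt1a6b probe, which reads these transcripts together, was at 3.59, 5.18 and 5.16 in RG@M-γ-CD replicates 1 to 3 and at 4.21, 4.80 and 4.52 in PBS replicates 1 to 3. Replicates 2 and 3 of the treated group lay above every PBS array, replicate 1 lay below every one, and the groups thus overlapped. The change was 0.13 ± 0.46 (SE, n = 3 and 3 mice, limma, unadjusted p = 0.779). The printed end probe was also lowest on replicate 1 and highest on replicates 2 and 3, with 1.66, 2.95 and 2.95 against 1.90, 2.72 and 2.18. Ugt1a10, whose human counterpart is an enzyme of the gut rather than the liver, had a dimmer probe. It stood at -2.15, -0.60 and -0.46 against -1.55, -0.89 and -1.20, again with replicate 1 lowest and the other 2 treated arrays highest (change 0.14 ± 0.47). The printed inner Ugt1a6b probe was detected on no array.

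Ugt2b34, a member of the family that glucuronidates steroids, was the UGT with the largest change. It was measured at 4.26, 4.76 and 4.86 in the RG@M-γ-CD group and at 4.22, 4.58 and 4.42 in the PBS group, with a change of 0.22 ± 0.22 (SE, unadjusted p = 0.339). The ranges overlapped through replicate 1 alone. Ugt2a1, whose probe is also listed for Ugt2a2, differed by 0.09 ± 0.23. The other 10 UGT genes were not tested. Probes of Ugt2a3, Ugt2b1, Ugt2b5, Ugt2b36, Ugt2b37 and Ugt3a1 were detected on no array. Ugt1a6a (RG@M-γ-CD replicate 2, PBS replicates 1 and 3) and Ugt2b35 (RG@M-γ-CD replicate 1, PBS replicates 1 and 3) were so on 3 arrays each, and Ugt2b38 and Ugt3a2 on 1 array each.

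The GSTs were the class most completely measured, with 22 of 23 genes tested and Gstt4 alone never detected. Values were higher in the RG@M-γ-CD group for 15 and lower for 7. The 7 mu class genes lie side by side on chromosome 3, and 6 of them had higher means, with a median change of 0.40. Gstm1 is the main mu enzyme of mouse liver and handles epoxides and reactive aldehydes. Its brighter probe read 4.03, 4.23 and 4.08 in the RG@M-γ-CD group and 3.49, 3.91 and 3.48 in the PBS group. All 3 treated arrays were above all 3 PBS arrays, the difference being 0.49 ± 0.18 (SE), a fold change of 1.40, with an unadjusted p of 0.0331 and an adjusted p of 0.99998 in limma. A second Gstm1 probe gave 2.46, 2.49 and 2.36 against 1.73, 2.27 and 1.86, a difference of 0.48. The array file places this second probe on chromosome 3 and the brighter one on chromosome 5 (chr5:117082490-117082549), although both bear the same gene name.

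Gstm4 was the only other member whose groups were separate on the probe that stood for the gene. Its probe is printed because it spans an exon junction, its 60 bases being spread over chr3:107846495-107846847 on the minus strand of mm9, and so reads spliced RNA.
Gstm4 probe: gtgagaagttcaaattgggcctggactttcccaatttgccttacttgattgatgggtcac
It gave -0.18, -0.21 and -0.16 in the RG@M-γ-CD group and -0.76, -0.36 and -0.64 in the PBS group, a change of 0.40 ± 0.16 (SE, unadjusted p = 0.0470, adjusted p = 0.99998). Replicate 1 was not low for either gene. Gstm3 read 4.97, 5.26 and 5.16 against 4.44, 5.08 and 4.55, so that PBS replicate 2 lay within the treated range (change 0.44 ± 0.22, unadjusted p = 0.0837). Genes of the mu class resemble each other closely, and how far their transcripts share a probe was not tested. Among the marker lists, the means of exocrine pancreas and squamous epithelium were also separate between the groups. The 5 pancreas markers tested, of 10 listed, averaged -1.29 to -1.07 in the RG@M-γ-CD group and -0.46 to 1.96 in the PBS group. Cpa1, Cpb1, Cela2a, Cela3b and Pnlip could not be tested. Of the 5, Cela1 had a higher mean in the RG@M-γ-CD group and 4 had lower ones. Prss2 had the largest difference, at -6.93, -6.44 and -6.54 against -3.05, -0.28 and -4.34. Its treated values were like those of conjugation probes detected on no array. With Prss2 left out, the mean of the other pancreas markers tested overlapped between the groups. The arrays overlapped for Cela1, Cel and Clps, while Ctrb1 was at -4.07, -4.75 and -4.13 against -3.98, 0.61 and -3.10. The 6 squamous markers tested of 10 averaged 0.74 to 0.81 and 0.97 to 1.23, with Krt5, Krt1, Dsg3 and Ivl untested. Of the squamous markers, Krt10 and Lor had higher means in the RG@M-γ-CD group and 4 had lower ones. The part of either list in the values of Gstm1 and Gstm4 was not tested.

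Other mu genes split within the RG@M-γ-CD group. Gstm5 was at 5.91, 4.42 and 5.04 against 4.93, 5.52 and 5.72, with replicate 1 highest of all arrays and replicate 2 lowest (change -0.27 ± 0.41). Gstm7 was at 0.49 in replicate 1 and between -1.43 and -0.89 on the other 5 arrays, so its mean difference of 0.46 ± 0.47 came from that replicate, and without it the value was -0.09. Gstm2 went the other way, with 2.39 in replicate 1, 4.56 and 4.22 in replicates 2 and 3, and 3.35, 3.93 and 3.47 in the PBS group (change 0.14 ± 0.57).

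The alpha class reduces lipid peroxides and conjugates their aldehydes, and its 3 measured members all had lower means in the RG@M-γ-CD group. Gsta3 was at 4.98, 3.03 and 3.86 against 4.16, 4.61 and 4.36. Both treated replicates 2 and 3 were below every PBS array, replicate 1 was above every one, and the difference was -0.42 ± 0.48 (unadjusted p = 0.406). Gsta4, specialised for 4-hydroxynonenal, had the same arrangement, at 1.65, 0.44 and 0.79 against 1.14, 1.43 and 1.25 (change -0.31 ± 0.32). Gsta2 differed by -0.28 ± 0.23, and the name Gsta1 heads no probe among those used here.

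In the theta class, Gstt1, which acts on small halogenated compounds, was at 0.86, 2.84 and 2.75 against 1.52, 2.25 and 1.67. Replicate 1 was again the lowest array and replicates 2 and 3 the highest (change 0.34 ± 0.55, unadjusted p = 0.565), and Gstt3 was ordered alike at 2.55, 3.63 and 3.34 against 2.70, 3.22 and 2.86. The remaining families differed little. Gstp1, the pi enzyme common in epithelial tumors, was at 3.55, 3.18 and 3.47 against 3.13, 3.69 and 3.55 on a probe also listed for Gstp2 (change -0.06 ± 0.21), and the separate Gstp2 probe differed by -0.10 ± 0.18. Gsto1 differed by 0.12 ± 0.24, the mitochondrial Gstk1 by 0.07 ± 0.37 and Gstz1, an enzyme of tyrosine breakdown, by 0.12 ± 0.16. Gsto2, a dim probe, had the largest difference of the GSTs outside the mu class, at -3.11, -2.35 and -2.57 against -3.12, -2.87 and -3.35 (0.43 ± 0.25, unadjusted p = 0.129). The 3 membrane-bound genes had differences of -0.19 ± 0.29 (Mgst1), 0.13 ± 0.21 (Mgst2) and 0.13 ± 0.25 (Mgst3). On the probes that stood for these genes the arrays of the groups overlapped. A second, dim Mgst3 probe read -4.08, -3.84 and -3.88 against -4.63, -4.13 and -4.30, with the groups separate. It was detected on the 3 RG@M-γ-CD arrays and on PBS replicate 3 alone, and so entered the test through the treated group.

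The SULTs held the widest spread of the 3 classes. Their median range over the 3 RG@M-γ-CD arrays was 1.46, against 0.77 over the PBS arrays. For the UGTs these ranges were 1.102 and 0.62 and for the GSTs 0.56 and 0.53, while over all genes they were 0.57 and 0.40. Probes of Sult1a1 and Sult1d1 are printed because a second probe of each gene exists and gave the same reading (mm9, chr7:133816657-133816716 and chr5:87985008-87985067, both minus strand).
Sult1a1 probe: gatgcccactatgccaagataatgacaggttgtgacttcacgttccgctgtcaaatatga
Sult1d1 probe: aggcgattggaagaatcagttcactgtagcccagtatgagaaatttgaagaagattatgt
Sult1a1, the broad phenol sulfotransferase, was at 1.46, 4.85 and 4.37 in RG@M-γ-CD replicates 1 to 3 and at 2.85, 4.11 and 2.88 in PBS replicates 1 to 3 on its brightest probe, and at 1.34, 4.69 and 4.25 against 2.72, 3.94 and 2.78 on the printed probe. The lowest array of all 6 and the 2 highest thus belonged to the same group, and the change of 0.28 ± 0.90 (SE, unadjusted p = 0.768) was smaller than its standard error. Sult1d1, which acts on catecholamines and other amines, was at 0.41, 2.62 and 2.41 against 1.05, 1.88 and 1.24, with 0.17, 2.58 and 2.38 against 1.08, 1.78 and 1.23 on the printed probe (change 0.43 ± 0.60). Sult1c2 was at 1.103, 4.24 and 3.56 against 2.71, 3.21 and 2.42 (change 0.18 ± 0.78). In each of these genes replicate 1 was lowest and replicates 2 and 3 were highest.

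Sult4a1, a form found mainly in brain whose substrate is not known, had the largest mean difference among the 34 genes, at -2.66, -1.33 and -0.71 against -2.47, -2.40 and -1.70 (0.63 ± 0.51, fold change 1.54, unadjusted p = 0.263). Its second probe was not detected. Sult1b1, a thyroid hormone and phenol sulfotransferase of the intestine, was steadier at 4.001, 4.49 and 4.65 against 3.74, 4.45 and 4.25 (change 0.23 ± 0.26). Sult2b1, the cholesterol sulfotransferase, was at 2.15, 1.75 and 2.72 against 1.75, 2.10 and 2.06 (0.24 ± 0.27). The arrays of the 2 groups overlapped for all 3. Sult1c1 (-0.07 ± 0.27) and Sult2a8 (-0.02 ± 0.18) were the 2 SULTs with lower means. Of the 11 SULT genes not tested, 8 were detected on no array. The estrogen sulfotransferase Sult1e1 was so on RG@M-γ-CD replicate 2 alone (-3.24), Sult5a1 on the same array alone and Sult2a7 on PBS replicate 3 alone (-2.79).

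One order of the arrays recurred across the classes, and it was noticed after the values were seen. From low to high it ran RG@M-γ-CD replicate 1, PBS replicates 1, 3 and 2, then RG@M-γ-CD replicates 3 and 2. The order was found in 6 of the 34 genes, namely Sult1a1, Sult1d1, Gstt1, Gstt3, Gstm2 and the Ugt1a6b probe, and in 223 genes (1.17%) of all those tested, out of 720 orders that 6 arrays can take. Its exact reverse was found in 0 of the 34 and in 0.833% of all genes. RG@M-γ-CD replicate 1 was the lowest array in 10 of the 34 genes and PBS replicate 1 in 16, while over all genes tested these arrays were lowest in 18.8% and 23%. Conversely RG@M-γ-CD replicate 1 was the highest array in 6 genes, all of them GSTs (Gsta3, Gsta4, Gstm5, Gstm6, Gstm7 and Gstz1), and in 28.9% of all genes. The means of the muscle, mature colonocyte and goblet cell markers were lowest on RG@M-γ-CD replicate 1 too, as given above. So was the mean of 8 fibroblast markers, at 2.46 against 3.25 and 3.31 in replicates 2 and 3 and 2.83 to 2.96 in PBS. Of the fibroblast markers, Col3a1 was lowest on PBS replicate 1 and Pdgfra on RG@M-γ-CD replicate 2. The colonocyte markers were not all lowest on RG@M-γ-CD replicate 1 either. Car1 and Cdhr5 were lowest on PBS replicate 1, while Slc9a3 (5.27) and Guca2b (3.49) were highest on RG@M-γ-CD replicate 1. The 11 leukocyte markers tested, of 12 listed, averaged 1.53 on that array, 0.35 and 0.61 on replicates 2 and 3 and 1.31 to 1.98 in the PBS group, with Cd79a untested. Of 6 posterior Hox genes, which mark the hind end of the gut, 3 were tested. Their mean was 1.095, 3.48 and 3.09 in the RG@M-γ-CD group and 3.34, 2.45 and 1.27 in the PBS group. Only Hoxd13 varied widely, at -3.77, 3.20 and 2.33 against 3.35, -0.09 and -2.89. Hoxa13 lay between 0.27 and 0.65 and Hoxb13 between 6.14 and 6.79 on all arrays. The part of these markers in the order of the conjugation genes was not tested.

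**Figure D2:**
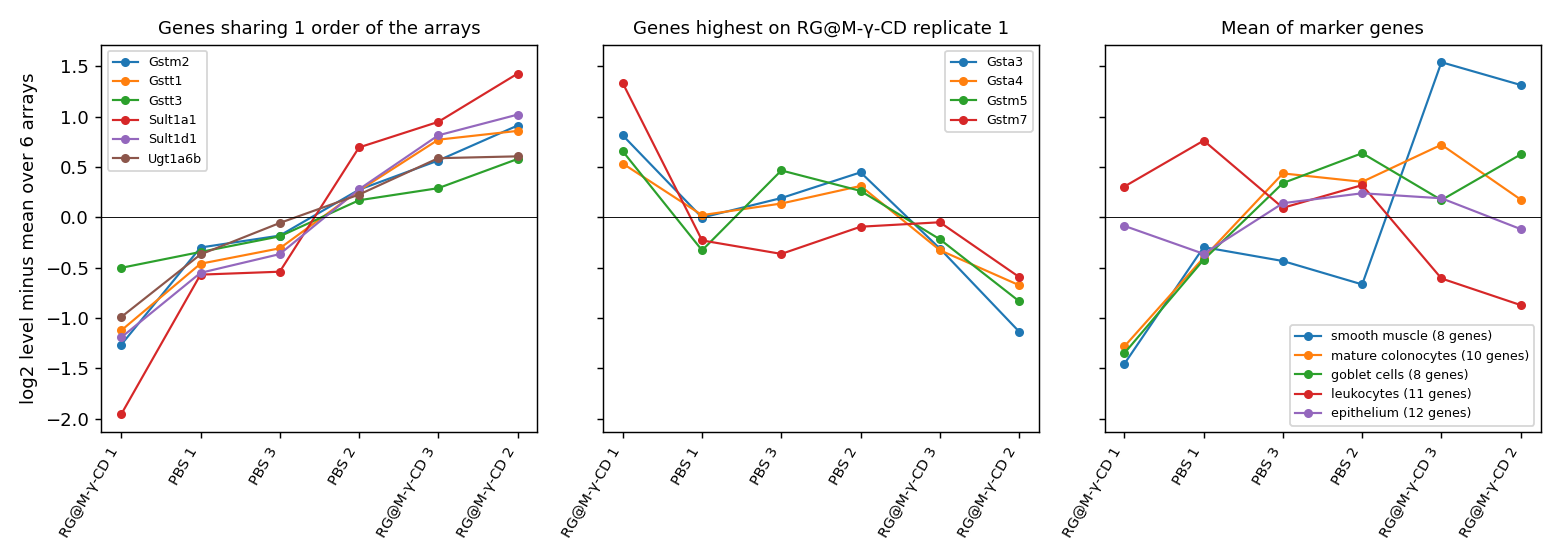
Log2 level minus its mean over 6 arrays (y axis), with the arrays in the order given on the x axis. The left panel shows the 6 genes that share this order, the middle panel 4 of the 6 GSTs that were highest on RG@M-γ-CD replicate 1, and the right panel the mean of 5 marker lists. The means of the smooth muscle, colonocyte and goblet cell markers are lowest on RG@M-γ-CD replicate 1, where the left-hand genes are lowest and the middle ones highest.

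With RG@M-γ-CD replicate 1 left out, 13 of the 34 genes (38.2%) had an unadjusted p below 0.05, beside 12.5% of the 19466 genes tested in that fit. None passed the adjusted threshold (smallest adjusted p = 0.163, limma). Of the 13, 11 were higher in the RG@M-γ-CD group, beside 7.04% of all genes, and 2 were lower, beside 5.42%. The SULTs led, with Sult1a1 at 1.33 ± 0.43 (SE), Sult4a1 at 1.17 ± 0.32, Sult1d1 at 1.13 ± 0.28 and Sult1c2 at 1.12 ± 0.32. Among the UGTs the Ugt1a6b probe was higher by 0.66 ± 0.22 and Ugt1a10 by 0.69 ± 0.24. Gstt1 (0.98 ± 0.26), Gstm2 (0.81 ± 0.24), Gsto2, Gstt3 and Gstm1 were the higher GSTs. The lower ones were Gsta3 (-0.93 ± 0.29) and Gsta4 (-0.66 ± 0.20). Class medians became 0.54 for the UGTs, 0.22 for the GSTs and 0.77 for the SULTs. On these 5 arrays the smooth muscle markers, too, were farther apart, with a median change of 1.86 against 0.95 on all 6. The colonocyte markers went from -0.19 to 0.41, and the part of either list in the values was not tested. In the opposite direction, leaving out PBS replicate 1 brought the class medians to -0.02 for the UGTs, -0.01 for the GSTs and 0.10 for the SULTs. A heat map of the study arranges the arrays otherwise than the labels, with RG@M-γ-CD replicates 2 and 3 beside PBS replicate 1 and without naming conditions. In a fit by that arrangement 3 members, Gsta3, Gsta4 and Gstm5, had an unadjusted p below 0.05, beside 16.5% of all genes, and 0 passed the adjusted threshold.

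**Figure D3:**
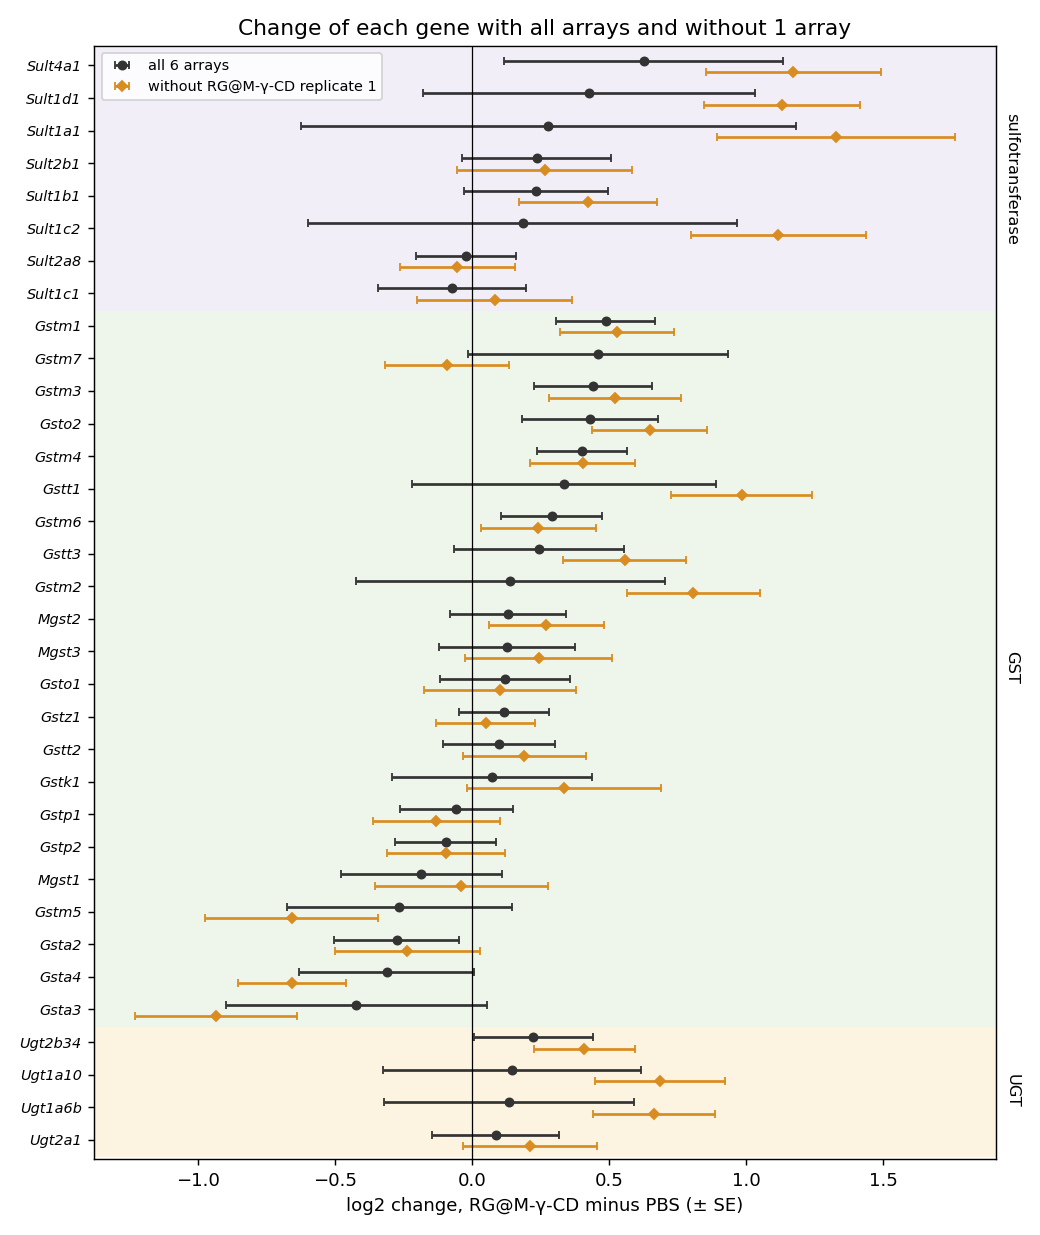
Log2 change of each tested gene, RG@M-γ-CD minus PBS, with its standard error (x axis), for all 6 arrays (dark circles) and for the 5 arrays without RG@M-γ-CD replicate 1 (orange diamonds). Genes are grouped by class. The diamonds of Sult1a1, Sult4a1, Sult1d1 and Sult1c2 lie above 1, where no circle lies, while Gstm1 and Gstm4 hardly move.

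Promoters were examined for letters bound by regulators of these genes. The antioxidant response element is bound by Nrf2, which responds to electrophiles, and the dioxin response element by the aryl hydrocarbon receptor (AhR), which responds to planar aromatic compounds. RefSeq windows on GRCm38.p6, from 250 bases before to 50 after the start of the gene, were matched for 48 of the 56 genes in 60 windows. The core TGACNNNGC, read on both strands, was present in 4 of the 60 windows (6.67%), beside 12.4% of all 32851 windows. The core GCGTG, on both strands, was present in 10 (16.7%), beside 32.4%, and where the 2 cores overlap both were counted. All these matches lay in the 42 windows of tested genes, where the shares were 9.52% and 23.8%. By gene, 4 of 30 tested genes (13.3%) held the antioxidant core, beside 14% of all genes with windows. The dioxin core was held by 8 of the 30 (26.7%), beside 35.2%. The 250 bases before the start are printed for the pair of SULTs with the shared array order and for 2 of the GSTs with an antioxidant core that were highest on RG@M-γ-CD replicate 1, with both cores in capitals.
Sult1a1, chr7:126676419-126676668, minus strand: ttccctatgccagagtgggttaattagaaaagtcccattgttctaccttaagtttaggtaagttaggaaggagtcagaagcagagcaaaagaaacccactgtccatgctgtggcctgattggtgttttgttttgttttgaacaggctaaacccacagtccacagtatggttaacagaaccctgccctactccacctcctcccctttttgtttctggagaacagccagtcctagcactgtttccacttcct
Sult1d1, chr5:87569007-87569256, minus strand: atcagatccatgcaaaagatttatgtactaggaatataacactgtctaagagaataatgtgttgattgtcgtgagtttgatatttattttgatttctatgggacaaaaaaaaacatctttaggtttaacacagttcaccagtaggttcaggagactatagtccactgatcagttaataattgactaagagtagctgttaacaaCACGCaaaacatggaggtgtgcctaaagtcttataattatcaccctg
Gsta3, chr1:21240335-21240584, plus strand: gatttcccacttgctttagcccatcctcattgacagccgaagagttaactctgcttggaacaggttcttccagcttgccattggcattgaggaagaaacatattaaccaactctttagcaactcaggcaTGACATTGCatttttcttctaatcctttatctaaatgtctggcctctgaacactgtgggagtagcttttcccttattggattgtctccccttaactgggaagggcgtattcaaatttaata
Gstm5, chr3:107895604-107895853, plus strand: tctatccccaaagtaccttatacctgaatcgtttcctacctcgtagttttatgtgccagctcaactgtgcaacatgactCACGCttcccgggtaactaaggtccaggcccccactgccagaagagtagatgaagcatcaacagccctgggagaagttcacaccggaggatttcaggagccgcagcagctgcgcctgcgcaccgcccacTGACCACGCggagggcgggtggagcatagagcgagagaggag
Neither core occurred in the Sult1a1 window, and Sult1d1 held the dioxin core once on the opposite strand. Gsta3 held 1 antioxidant core, and Gstm5 held 1 that overlaps a dioxin core on the opposite strand, besides a second dioxin core farther out. These are matches of letters and not measured binding.

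The genes that feed, regulate, complete or reverse conjugation were followed as 5 lists, with median changes between -0.12 and 0.07. Supply of UDP-glucuronate and reversal of glucuronidation, taken as 1 list, had a median change of -0.12 over 5 genes. Ugdh, which makes the donor, was at 3.46, 4.29 and 4.33 against 3.46, 3.93 and 3.84 (change 0.28 ± 0.28). Gusb, on the side of reversal, differed by -0.40 ± 0.42. Synthesis and recycling of glutathione had -0.03 over 13 genes tested of 15, with Gclc, the rate-limiting ligase, at -0.03 ± 0.15. PAPS supply and desulfation, also taken as 1 list, had 0.02 over 8 of 9. The sulfate carrier Slc26a2 was at 3.24, 5.47 and 5.23 against 3.997, 4.59 and 4.11, which is again lowest on RG@M-γ-CD replicate 1 and highest on the other treated arrays. Efflux pumps for the conjugates had -0.06 over 9 genes, and nuclear regulators 0.07 over 16. None of these genes passed the adjusted threshold, and none of these 5 lists held a gene with an unadjusted p below 0.05.

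Of the 15 targets of Nrf2 outside the 3 classes, 14 had lower means in the RG@M-γ-CD group, with a median change of -0.23. Over all genes tested, 47.2% had higher means and the median change was -0.01. An unadjusted p below 0.05 was reached by 2 of them, and 0 passed the adjusted threshold. Hmox1, which degrades heme, was at 1.47, 0.39 and 1.19 against 2.15, 1.77 and 1.81 (change -0.89 ± 0.30, unadjusted p = 0.0240). Ephx1, the microsomal epoxide hydrolase, was at 3.69, 3.31 and 3.35 against 3.71, 4.15 and 4.14 (-0.55 ± 0.20, unadjusted p = 0.0310). All treated arrays of both genes were below all PBS arrays, a direction opposite to that of Gstm1 and Gstm4. Over all genes tested, the groups did not overlap in 4.57%. The 11 leukocyte markers given above all had lower means too, with a median change of -0.53, and their part in the values of Hmox1 and Ephx1 was not tested. Nqo1, a target of both Nrf2 and AhR, was the exception at 0.11 ± 0.24. Among the AhR targets 4 of 7 could be tested, with a median change of -0.11, while Cyp1a1, Cyp1a2 and Cyp1b1 could not.

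**Figure D4:**
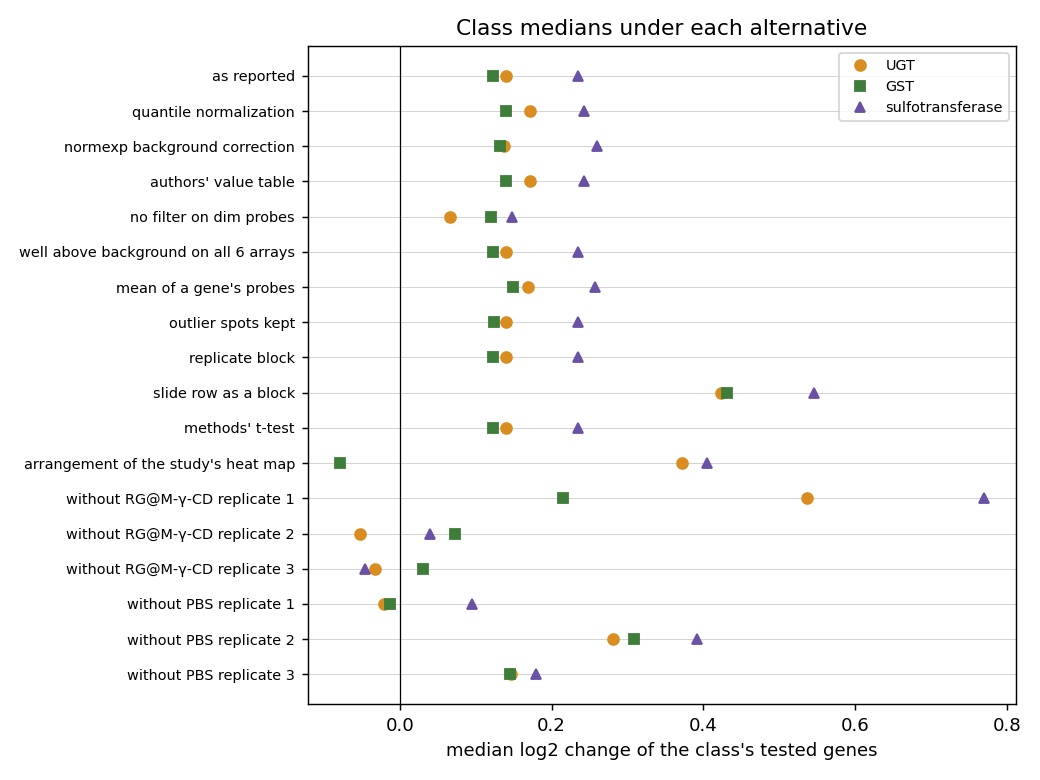
Median log2 change of the tested genes of each class, RG@M-γ-CD minus PBS (x axis), as reported and under each alternative way of processing the arrays or choosing them (y axis). For the heat map arrangement the value is its first side minus its second. Normalization and background correction leave the medians close to 0.14, 0.12 and 0.23, while leaving out single arrays spreads those of the SULTs from -0.05 to 0.77.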

How the data were processed

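Total RNA of colon tissue with tumors was labeled with Cy3 and hybridized, 1 array per mouse, to 6 Agilent SurePrint G3 mouse arrays on 1 slide, and per the file headers the intensities of 62976 spots per array were extracted with Agilent Feature Extraction 10.7.1.1, background-subtracted and detrended, without normalization between arrays. A table of log2 values deposited by the authors, quantile normalized by its shared range of 2.04 to 18.1 in all columns, was used as an alternative only.

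Spots marked as outliers (790 over the 6 arrays) and 3671 control spots per array were left out. Log2 intensities minus each array's 75th percentile were fitted with limma 3.58.1 in R 4.3.3 (lmFit, eBayes), with Benjamini-Hochberg adjustment over all genes tested and a threshold of 0.05. The fit was tested on simulated data. Samples were grouped by their labels, and same-numbered arrays were not treated as paired. For 32994 probes (58.3%) the gene symbol came through the accession from RefSeq, and the others kept the array's name. Sequences and promoter windows were read with Python 3.11.15, and plots were drawn with matplotlib 3.10.9. The number of arrays limits the precision.

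Named were the members with an unadjusted p below 0.05 or groups that do not overlap, the 6 largest changes of each class, and members known from the colon. The members and lists were chosen with earlier results of these data known. Alternatives were outlier spots retained, quantile normalization, normexp (offset 50), the deposited value table in place of the intensities, testing every probe or only those detected on all 6 arrays, averaging the probes of a gene, a block for the replicate number or for the slide row, the methods' t-test, the heat map arrangement, and leaving out each array.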

Additional observations from a re-analysis of the deposited data

How the results depend on the processing

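No conjugation gene passed an adjusted p of 0.05 under any alternative tried. Over all genes tested the count at that threshold was 0, except for 5 in the heat map arrangement, and it ranged from 0 to 206 on leaving out single arrays, 206 being the value without RG@M-γ-CD replicate 1. Of the 34 conjugation genes, the count at an unadjusted p below 0.05 was 2 as reported, both higher in the RG@M-γ-CD group, 3 in the heat map arrangement, all lower, 0 without a filter on dim probes, 1 with the slide row as a block, and 0 to 13 on leaving out single arrays (13 without RG@M-γ-CD replicate 1, 3 without PBS replicate 2, where Ugt2b35, not among the 34, entered the test and brought the count to 4). The number of the 34 with a higher mean in the RG@M-γ-CD group was 25 as reported, 32 with the slide row as a block and 17 to 29 on leaving out single arrays. In the heat map arrangement, 17 were higher on the mixed side named above, which is not the RG@M-γ-CD group. With the replicate number as a block, 25 had a higher mean and the count at an unadjusted p below 0.05 in limma was 0. Deviations of same-numbered arrays from their group means correlated at -0.25, -0.23 and 0.14. The labels do not say whether same-numbered mice were paired, and these correlations cannot decide it. With the slide row as a block the median change of the GSTs was 0.43, against 0.12, while the median of all genes moved from -0.01 to 0.10. Row 1 of the slide holds the 3 RG@M-γ-CD arrays and PBS replicate 1, and row 2 the other PBS arrays, so row and group overlap in part. Leaving out single arrays gave medians from -0.05 to 0.54 for the UGTs, -0.01 to 0.31 for the GSTs and -0.046 to 0.77 for the SULTs. Of 442 values of 26 named genes under the alternatives, 35 changed sign, all without a call on either side, and 3 genes (Gstm5, Gstp1 and Mgst1) did so outside of left-out arrays and the heat map arrangement. The cause was not tested. Signal over background limits the 22 genes not tested, and 3 mice per group limit the rest.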

Other observations

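Probes with older array names belong to the same families under their present RefSeq symbols and were not counted above. Gstp3, a pi class gene named BC021614 on the array, was detected on all 6 arrays, at -1.74, -1.03 and -1.35 in the RG@M-γ-CD group and -1.31, -1.35 and -1.55 in the PBS group, with a change of 0.03 ± 0.22 (SE, limma, adjusted p = 0.99998). Sult6b2 was detected on PBS replicate 3 alone (-2.84), the array on which Sult2a7 was also found, and Sult3a2 on none.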
